A study of Mus musculus with 9 samples.

Results

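Primary cortical neurons that had been deprived of oxygen and glucose for a short time (2 or 4 hr) were set against neurons deprived for a long time (6 or 8 hr), on 4 of the 9 single-colour expression arrays of the series. The members were chosen by the hours of OGD in the sample names. Short OGD comprised the 2 hr and the 4 hr array and long OGD comprised the 6 hr and the 8 hr array, with 1 array for each hour, and the undeprived 0 hr array is given beside them as background. The neurons came from E15 cortices of Swiss albino mice, an outbred stock, and were in culture for 6 days when OGD was applied as glucose-free balanced salt solution in a chamber held at very low oxygen. All groups, the 0 hr control included, were then kept for 24 hr in reperfusion medium from which the B27 supplement had been left out. RNA of 4 separate experiments was pooled for the 0, 2 and 4 hr arrays according to the methods, which do not state this for 6 and 8 hr. The arrays therefore hold no replicate of any hour, and the spread within an arm is a spread between different hours of OGD.

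Oxygen-glucose deprivation is used as a culture model of stroke. It stops oxidative and glycolytic energy supply, and the return of glucose and oxygen lets RNA synthesis resume in the cells that survive. Long non-coding RNAs (lncRNAs) are transcripts without a protein product, many of them expressed at low levels and in few cell types. Among them, lincRNAs lie between protein-coding genes, and ultraconserved segments are stretches of the genome identical in human, mouse and rat, many of which are transcribed. In RNA from whole cultures, the loss of cells of one type and a lower RNA level in each cell cannot be told apart.

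The authors' table holds quantile-normalized intensities of 29929 of the 59709 transcript probes on the array. Among them, 2519 are lncRNA probes by their names. They are made up of 1579 lincRNA exon probes, 233 mouse lincRNA probes, 406 probes derived from human lincRNAs and 301 probes of ultraconserved segments. A further 26719 probes have only a number of the array design, 632 carry the accession of a cDNA or expressed sequence tag, and 59 a RefSeq mRNA accession. Since the numbered probes are not paired with genes in the files, markers of neurons and of other brain cells were not checked here. Feature Extraction, the scanner software, called 45.6% of the transcript probes well above background at 2 hr and 49.1% at 4 hr, against 37.2% at 6 hr and 33.2% at 8 hr. With a probe taken as detected when it exceeded the 95th percentile of the negative probes on its own array, the shares were 42.3%, 43.7%, 45.1% and 40.5%. The lower share on the long arrays was thus seen with the first call and not with the second.

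The 6 and 8 hr arrays did not resemble each other more than they resembled the short arrays. Over all 29929 probes, the root mean square difference in log2 intensity was 0.54 between 2 and 4 hr, the smallest of the 6 pairs, and 0.92 between 6 and 8 hr, the largest. Differences between an array of short and an array of long OGD lay between these values, from 0.67 for 4 and 8 hr to 0.82 for 2 and 6 hr. Between 6 and 8 hr, 6798 probes (22.7%) differed by more than 1 log2, against 1707 (5.70%) between 2 and 4 hr. The 18053 probes with signal well above background on each of the 4 arrays gave the same order of the within-arm pairs, with 0.42 for 2 and 4 hr and 0.69 for 6 and 8 hr. The 0 hr array differed from 6 hr by 0.74, less than from 4 hr (0.86), 2 hr (0.96) or 8 hr (0.99).

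**Figure D1:**
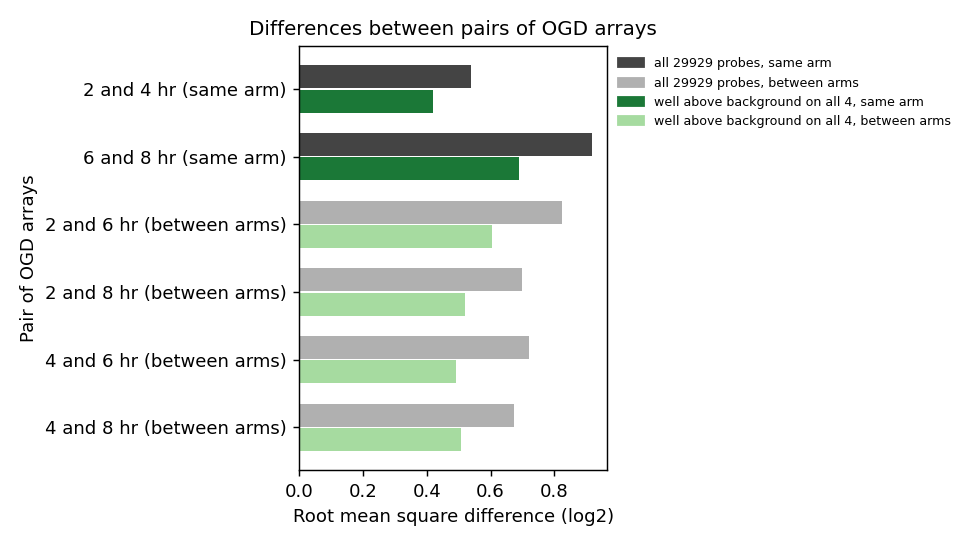
Root mean square difference in log2 normalized intensity (x axis) for each pair of the 4 OGD arrays (y axis), over all probes of the authors' table and over those well above background on all 4 arrays. The 6 and 8 hr pair, both long OGD, has the largest difference (0.92 and 0.69).

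Where all 4 arrays had signal well above background, the 6 hr value lay outside the range of the other arrays for 71.8% of probes, the 8 hr value for 56.5%, the 2 hr value for 43.3% and the 4 hr value for 28.2%. For the numbered probes of this kind, 6 hr was the lowest of the 4 arrays in 34.9% and the highest in 37.1%. For the 1453 named lncRNA probes the balance was different, since 6 hr was the lowest in 53.1% and the highest in 15.5%, and 8 hr was the highest in 39.3% and the lowest in 15.9%.

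A probe was taken to differ when both long arrays lay more than 1 log2 above, or both more than 1 log2 below, both short arrays. By this rule 81 probes (0.271% of all probes in the table) were higher and 141 (0.471%) were lower in long OGD. Taken alone, the 6 hr array lay more than 1 log2 above both short arrays at 742 probes and below at 1740, and the 8 hr array above at 733 and below at 1010. Both comparisons use the same short arrays. With no minimum distance between the arms, 3862 probes (12.9%) were higher and 4113 (13.7%) were lower. The counts rose with any array left out, to 266 higher and 379 lower without 2 hr, to 532 and 457 without 4 hr, and to the single-array counts above without 8 or 6 hr. Leaving out an array drops a condition of the rule, so that these counts could not fall.

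Most of the probes that differed were dim. Of the 141 lower probes, 138 were not well above background on either long array, and 81 were at the lowest value of the table on both of them, where values have no order. The table's lowest value was itself different on each array, being 5.38 and 5.20 in short OGD (2 and 4 hr) and 5.80 and 5.70 in long OGD (6 and 8 hr). Where the long level is only a bound, the fold difference was computed on each long array against the lowest intensity well above background there, or against the probe itself where it was higher. Such a bound exceeded 1 for 31 of the 133 lower probes it could be computed for, and it exceeded 2 for 2 of them. Both counts depended on single arrays. The 2 bounds above 2, of ASMM9PARTA001065 and humanlincRNA1297+, fell to 1.98 and 1.94 without the 6 hr array. Without 8 hr more probes exceeded 1, and more exceeded 2, among them ASMM9PARTA012065 at 2.22. Of the 81 higher probes, 62 were not well above background on either short array, and 24 were well above background on both long arrays. Their bound exceeded 1 in all 33 cases that could be computed and reached at least 4.66-fold. Without the 8 hr array it fell to 0.926 for ASMM9PARTA008505 and to 0.828 for ASMM9PARTA014190. Intensity is the quantity that moves with these calls, and its part in them was not tested.

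Only 12 higher probes (0.0665% of 18053) and 1 lower probe (0.00554%) were well above background on all 4 arrays, and all 13 were numbered probes. The brightest changes were therefore in transcripts that the files do not name. ASMM9PARTA043547 had intensities of 4529 at 2 hr and 5892 at 4 hr, then 18872 at 6 hr and 22192 at 8 hr, with 14441 at 0 hr. Its long values lay 1.99 log2 above its short values, with a modelled error of 0.14 for the difference of the spots. ASMM9PARTA026215 read 57.8 and 60.0 at 2 and 4 hr, and 219.7 and 185 at 6 and 8 hr, with 198 at 0 hr. In both probes the arms were well apart, and the undeprived level was on the side of long OGD. The 1 lower probe, ASMM9PARTA011710, read 117 and 122 in short OGD, 35.9 and 47.7 in long OGD, and 34.6 at 0 hr. These numbered probes lie outside the rule for named probes and were chosen after their values had been seen. Of the 12 higher probes measured on every array, 11 had a 0 hr value nearer to the long than to the short mean, against 64.8% of all probes of this kind, and the choice of probes with low short values bears on that count. Among the 12, 4 exceeded an intensity of 1000 in long OGD.

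**Figure D2:**
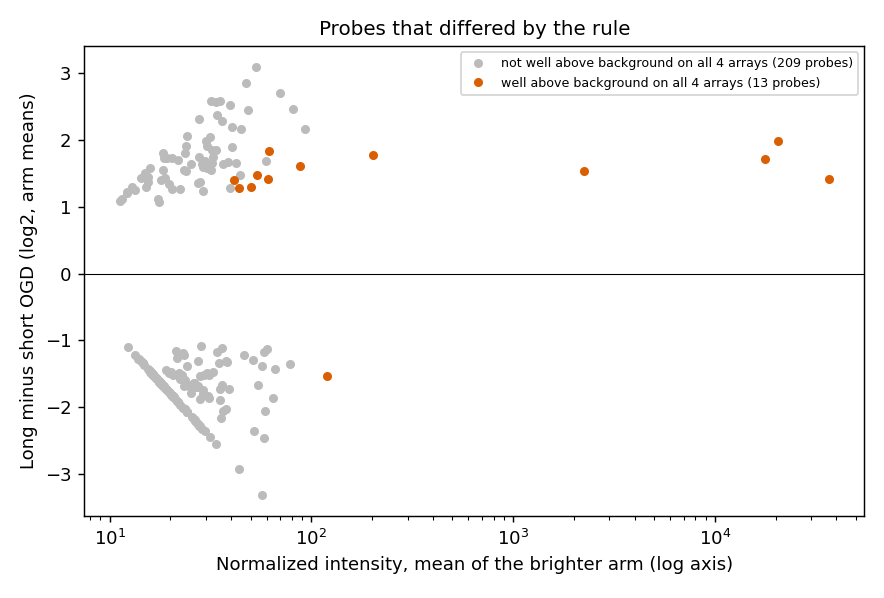
Difference between long and short OGD in log2 arm means (y axis) against the mean intensity of the brighter arm (x axis, log scale) for the 222 probes that differed by the rule. Marked in colour are the 13 with signal well above background on every array, and the straight lower edge is formed by probes at the table's lowest value in long OGD.

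The 0 hr array, which the rule did not use, lay nearer to the long than to the short mean in 63.0% of all probes. It lay nearer to long OGD in 76 of the 81 higher probes and in 83 of the 141 lower probes. These shares are shaped by the choice of probes, as 62 of the 81 higher probes were not well above background on either short array, 78 of the 81 were well above background at 0 hr, and the table requires such a flag on 3 arrays. They are given as a description.

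Named lncRNA probes were called lower at 23 of 2519 probes (0.913%, against 0.471% for all probes) and higher at 5 (0.198%, against 0.271%). After normexp background correction no probe of the table was lower by the rule, and 5 probes, none of them a named lncRNA, were higher. Normexp was run with an offset of 50, which shrinks the log2 differences of dim probes. The lower probes of the table had a median intensity of 23.2 in short OGD, so that these normexp counts say little about the calls. The lower share was similar in the 4 classes, at 14 of 1579 lincRNA exon probes (0.887%), 2 of 233 mouse lincRNA probes (0.858%), 4 of 406 human lincRNA probes (0.985%) and 3 of 301 ultraconserved probes (0.997%). Among the numbered probes 112 of 26719 (0.419%) were lower. All 5 higher lncRNA probes were lincRNA exons, and their names all end in the minus sign of the design, as do 783 of the 1579 exon probes. Of the 14 lower exon probes, 9 end in plus and 5 in minus. None of the 28 lncRNA probes that differed was well above background on all 4 arrays. The 23 lower probes were not well above background on any long array, 14 of them lay at the table's lowest value on both, and 7 had a bound above 1. Of these bounds, those of MM9LINCRNAEXON10710+, MM9LINCRNAEXON10839+ and mouselincRNA0288- fell to 0.918, 0.934 and 0.978 without the 6 hr array. The 5 higher probes had a measured level at 0 hr, where all were well above background, but only 1 was so on both long arrays.

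The named lncRNA classes as a whole were lower at 6 hr and not at 8 hr. Against the mean of the short arrays, the median of the named lncRNA probes was -0.26 log2 at 6 hr and 0.03 at 8 hr, whereas the numbered probes had medians of 0.03 and -0.03. Human lincRNA probes had the lowest median at 6 hr, at -0.45, followed by mouse lincRNA probes at -0.33, ultraconserved probes at -0.23 and lincRNA exon probes at -0.21. At 8 hr the same classes had medians of 0.02, 0.09, -0.00 and 0.03. The undeprived array was lower still, with medians of -0.73 for human lincRNA, -0.61 for mouse lincRNA, -0.41 for ultraconserved and -0.29 for lincRNA exon probes. Relative to the numbered probes, which hold lncRNAs as well, named lncRNA probes at 6 hr stood 0.29 lower in the authors' table. They stood 0.34 lower with scaling to the 75th percentile. After normexp background correction, whose offset shrinks the differences of dim probes, they stood 0.13 lower. The median arm difference of the named lncRNA probes was -0.13, against -0.04 for all probes. Brightness moves with class, since 28.0% of named lncRNA probes were in the dimmest of 4 equal classes of the table and 20.2% in the brightest. The lncRNA median of long minus short was -0.30 in the dimmest class, against -0.12 for the other probes, and -0.05 in the brightest, against -0.02. The part of brightness in the lncRNA difference was not tested.

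**Figure D3:**
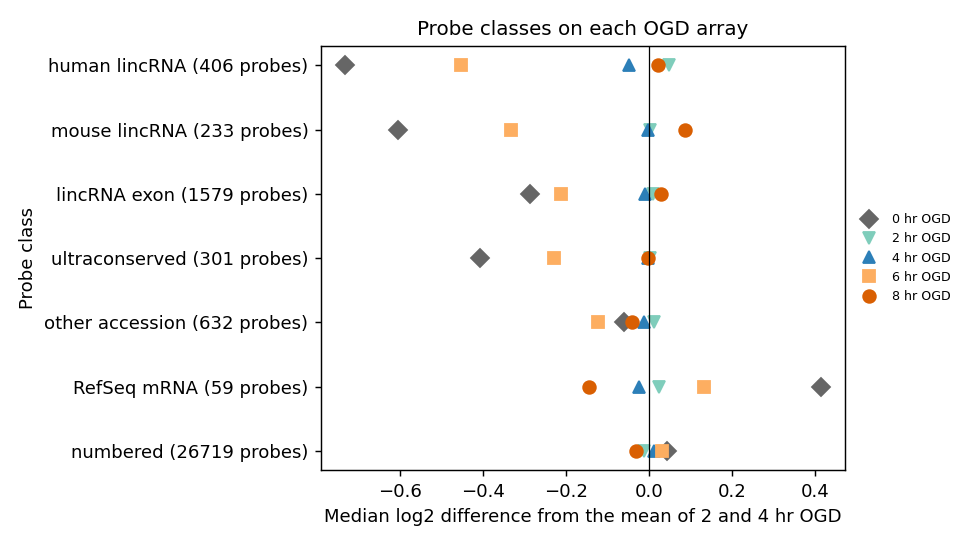
Median log2 difference of each OGD array from the mean of the 2 and 4 hr arrays (x axis) for each class of probes (y axis). The 6 hr points of the 4 named lncRNA classes lie between -0.21 and -0.45, on the side of the 0 hr points, and the 8 hr points lie near 0.

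MM9LINCRNAEXON10280- was the 1 named lncRNA probe that was higher by the rule and well above background on both long arrays. It marks an exon of a mouse lincRNA, whose function is not given by the name. Its intensity was 16.8 at 2 hr and 25.6 at 4 hr, then 54.9 at 6 hr and 158 at 8 hr, against 149 at 0 hr. The 2 hr value was not well above background. From 4 to 8 hr the values increased with the hours, and the longest OGD was close to the undeprived level. The arms lay 1.099 log2 apart at their nearest, between 4 and 6 hr. The difference of the arm means, which includes the 2 hr value and is thus not exact, was 2.17 log2 with a modelled error of 0.24. It was 0.95 after normexp background correction, whose offset shrinks the differences of dim probes. The other higher lincRNA exons, chosen here after their values had been seen, were not well above background on any OGD array. MM9LINCRNAEXON10760- read 11.4 and 7.51 in short OGD and 25.7 and 32.0 in long OGD, with 31.0 at 0 hr. MM9LINCRNAEXON11362- was at the lowest table value on both short arrays and read 11.4 and 11.1 on the long ones, far under its 38.4 at 0 hr.

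No lower lincRNA exon was well above background on a long array, so that their order by the gap between the arms is not a measured one. MM9LINCRNAEXON11255+ came first in that order. It read 35.7 at 2 hr and 35.5 at 4 hr, and 5.80 at 6 hr and 10.999 at 8 hr, with 14.4 at 0 hr. As neither long value was well above background, short OGD was at least 1.20-fold higher. The other exon probes named in this direction, MM9LINCRNAEXON10106+, MM9LINCRNAEXON11697-, MM9LINCRNAEXON10382- and MM9LINCRNAEXON11326+, were at the lowest table value on both long arrays. Their short values lay between 16.8 and 33.3, and no fold could be given for them since the bound was under 1. MM9LINCRNAEXON11782+ lies outside the rule for named probes and was added with its values in view, as its bound was the highest of the lower exons. It read 56.1 and 57.5 in short OGD, 18.3 and 26.1 in long OGD, and 9.05 at 0 hr, and short OGD was at least 1.91-fold higher.

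Mouse and human lincRNA probes gave the same picture. mouselincRNA0288- read 34.8 and 30.2 in short OGD and 10.04 and 13.6 in long OGD, with 15.2 at 0 hr, and short OGD was at least 1.09-fold higher, a bound that fell to 0.978 without the 6 hr array. mouselincRNA1498+ read 31.4 and 20.5 against 5.80 and 9.30, with 7.44 at 0 hr, and had no bound above 1. humanlincRNA1297+ was the brightest of the lower lncRNA probes. It read 103 at 2 hr and 40.1 at 4 hr, and 17.2 at 6 hr and 18.3 at 8 hr, with 31.8 at 0 hr. The 2 hr value was the highest by far, and short OGD was at least 2.17-fold higher, or at least 1.35-fold without the 2 hr array. humanlincRNA0957- read 19.1 and 15.0 in short OGD and was at the lowest table value in long OGD.

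The lower ultraconserved probes were uc.415-, uc.192+ and uc.81+. uc.415- read 41.4 at 2 hr and 17.9 at 4 hr, and 5.80 and 5.70 in long OGD, with 7.57 at 0 hr. uc.192+ read 26.4 and 14.9, and was at the same lowest values in long OGD. uc.81+ read 23.6 and 28.5, against 5.80 and 11.7. At 0 hr none of these ultraconserved probes was well above background, which is not the same as an absence of signal. The flag on both short arrays and the lower long values are part of how they were chosen. With all 4 arrays, no bound above 1 could be given for any of these ultraconserved probes. That of uc.415- was 0.917, and it was 1.40 without the 4 hr array and 1.03 without the 8 hr array. Among the named lncRNA probes, those nearest to the threshold were uc.81+ just inside it, with a gap of 1.01 log2, and MM9LINCRNAEXON11019+, uc.208+ and MM9LINCRNAEXON12074+ just outside it, with gaps of 0.997. At uc.81+ and uc.208+ neither long value was well above background, so that their side of the threshold is not measured.

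**Figure D4:**
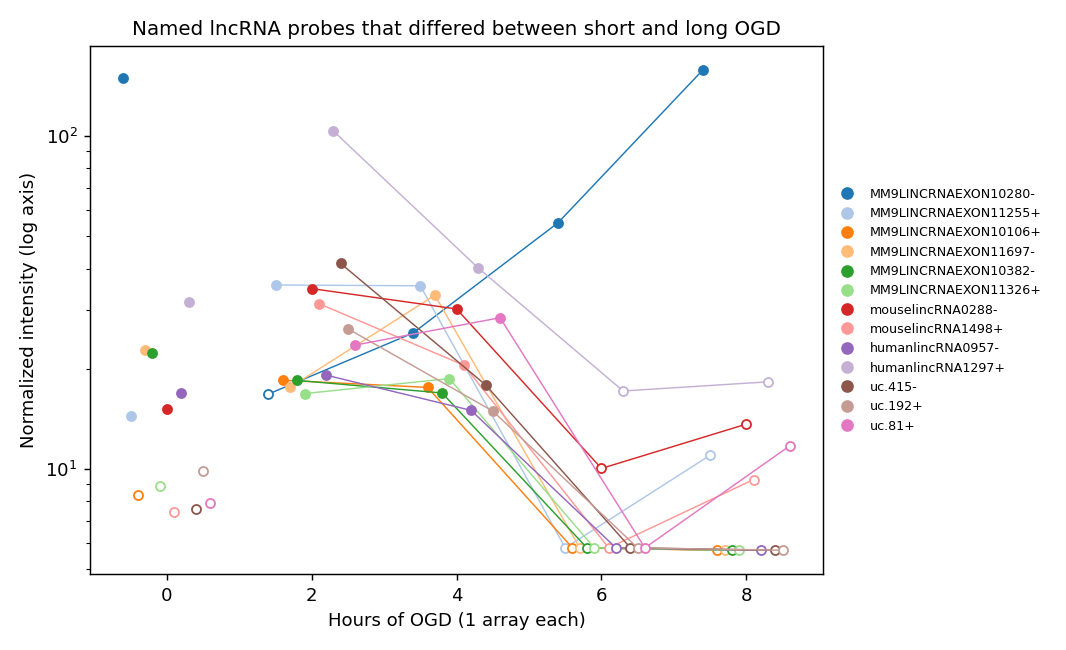
Normalized intensity (log axis) of the 13 named lncRNA probes on the 5 OGD arrays, by hours of OGD. Points of an hour are set side by side to avoid overlap. Filled points are well above background and open points are not. MM9LINCRNAEXON10280- is the 1 probe with higher values in long OGD, and the other 12 fall to open points at 6 and 8 hr.

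Among the 1453 named lncRNA probes well above background on all 4 arrays none reached the threshold. Some of the nearer ones in each direction are given here because their levels are measured in both arms. They were chosen after their values had been seen. humanlincRNA1300- was bright throughout, with 3581 at 2 hr and 4018 at 4 hr, then 7280 at 6 hr and 9288 at 8 hr, and 4933 at 0 hr. Its arms lay 0.86 log2 apart and its means differed by 1.12, with a modelled error of 0.14. MM9LINCRNAEXON12074+ read 24.9 and 27.4 in short OGD, and 54.6 and 74.5 in long OGD, with 66.3 at 0 hr. In the other direction, MM9LINCRNAEXON10571+ read 500.2 at 2 hr and 788 at 4 hr, and 263 at 6 hr and 285 at 8 hr, with 923 at 0 hr. Its arms lay 0.81 log2 apart, and the undeprived level was here on the side of short OGD. uc.238+ was the ultraconserved probe with the widest separation of this kind, with 391 and 382 in short OGD, 258 and 275 in long OGD, and 154 at 0 hr. Both hours of each arm lay close together, and the arms differed by 0.54 log2. Of all these lncRNA probes, 154 (10.6%, against 12.7% of all probes measured on 4 arrays) had both long values above both short values, and 186 (12.8%, against 9.65%) had both below.

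Of the 632 probes with an accession of other kinds, 4 were higher and 6 lower in long OGD (0.633% and 0.949%, against 0.271% and 0.471% of all probes). They were looked at after their values had been seen. AI561687 read 7.43 and 10.5 in short OGD and 27.1 and 86.6 in long OGD, with 100.2 at 0 hr, and was at least 3.23-fold higher in long OGD, or at least 1.81-fold without the 8 hr array. BI853964 read 5.38 and 8.71 against 25.0 and 62.6, with 56.6 at 0 hr. In both probes 8 hr was above 6 hr and close to the undeprived level. BY365689 was the brightest of these 6 lower probes, with 77.5 and 79.2 in short OGD, 25.6 and 36.4 in long OGD and 30.5 at 0 hr.

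Of the 43 lncRNAs in the study's clusters of maturing neurons, 6 match a probe name exactly, and 0 of these 6 differed between short and long OGD by the rule, against 0.742% of all probes in either direction, a share too low for a count over 6 probes to be read. The study chose that list on other arrays of the same series. MM9LINCRNAEXON11613+ read 13.2 and 23.3 in short OGD and 22.0 and 28.8 in long OGD, with 58.2 at 0 hr. MM9LINCRNAEXON10523+ stood out at 8 hr, with 68.0, against 5.38 at 2 hr, 13.5 at 4 hr and 5.80 at 6 hr, and the last 3 values were not well above background. MM9LINCRNAEXON10527+ was between 17.99 and 20.8 on every array but 6 hr, where it was at the lowest table value. uc.64+, MM9LINCRNAEXON10225- and MM9LINCRNAEXON10254- lay between 5.70 and 26.3 in OGD and their arms overlapped.

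Of the 59 probes with a RefSeq mRNA accession, 54 matched a gene symbol and none differed by the rule, against 0.742% of all probes. The arms did not overlap in 10 probes with higher and 8 with lower values in long OGD (16.9% and 13.6%, against 12.9% and 13.7% of all probes). Of the 10, 5 were at the lowest table value on all 4 OGD arrays, so that their order was set by the table's lowest value and not by signal. All 5 lie on the Y chromosome and were well above background at 0 hr. Of the other Y-linked probes, Gm20823 and Gm20738 were well above background on every OGD array, and Gm20854, Ssty2 and Gm20806 were not. Mia3, which encodes a protein needed for collagen export from the endoplasmic reticulum, came nearest to the threshold. It read 23.2 at 2 hr and 48.5 at 4 hr, and 11.7 at 6 hr and 10.4 at 8 hr, with 29.2 at 0 hr. Neither long value was well above background, and no fold is given, since the bound of 1.13 fell to 0.783 without the 4 hr array. Hmgcs1, an enzyme of cholesterol synthesis, had 5834 and 4003 in short OGD, 4482 and 2620 in long OGD and 11259 at 0 hr, and its arms overlapped. Gm21953 read 528 and 468 in short OGD and 657 and 1039 in long OGD, with 509 at 0 hr, and its arms lay apart. Several of these mRNAs belong to families of near-identical copies, so that the probe cannot be assigned to one gene with certainty. Of the 38 mRNA probes well above background on all 4 arrays, 8 hr was the lowest of the arrays in 16 and the highest in 15. Among all 18053 probes of this kind the shares were 28.0% and 28.5%. These genes were picked with their values in view.

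The reference genes, 15 in all, are not in the authors' table and were read from the scanner signal of their repeated spots, of which 16 to 20 were free of outlier flags on an array. The 13 that were well above background on the 5 OGD arrays had spot-to-spot SDs of 1.85% to 17.2% of the mean. As deposited, all 13 had a lower mean in long than in short OGD, by 0.19 to 0.78 log2. In 3 of them both long values were below both short values, against 30.3% of all transcript probes on this unscaled signal, and in none were both above, against 1.92%. The direction did not hold after scaling, since 2 of 13 were lower in long OGD with the 75th percentile and 5 of 13 after quantile normalization, and 3 were higher without overlap with the 75th percentile, against 32.3% of all probes. None passed the threshold on any of these scales. An exact two-sided permutation test over the 4 arrays cannot give a p below 0.333.

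Of the metabolic enzymes, Gapdh of glycolysis had unscaled signals of 5688 ± 266 and 6016 ± 435 in short OGD (SD over the 20 spots), and 5910 ± 324 and 2522 ± 160.0 in long OGD. On this unscaled signal 8 hr alone was low, whereas after quantile normalization its log2 values were 12.83, 11.98, 12.34 and 11.92 at 2, 4, 6 and 8 hr, with 4 hr about as low as 8 hr. Hprt, of purine salvage, read 543 ± 37.1 and 1032 ± 47.8 in short OGD, and 901 ± 45.7 and 393 ± 25.3 in long OGD. Its arms overlapped, with 2 and 8 hr low and 4 and 6 hr high. G6pd2, of the pentose phosphate pathway, read 243 ± 16.6 and 292 ± 50.2 against 142 ± 20.55 and 199 ± 14.7. Gk, glycerol kinase, read 447.5 ± 46.9 and 650.5 ± 70.02 against 411 ± 51.9 and 434 ± 40.8. Both of these had lower unscaled signals in long OGD without overlap. Scaled to the 75th percentile, G6pd2 overlapped and Gk was higher in long OGD.

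The cytoskeletal genes followed the order of Hprt. Actb read 4182 ± 370.05 at 2 hr and 7743 ± 180.4 at 4 hr, then 7008 ± 157 at 6 hr and 3297 ± 177 at 8 hr. Tuba1b, an alpha-tubulin, read 4726 ± 206, 8786 ± 181, 7686 ± 307 and 2764 ± 53.0. The protein folding genes did likewise. Ppia, a prolyl isomerase, read 7751 ± 479.5, 17024 ± 315, 14106 ± 373 and 5858 ± 186, and Hsp90ab1, a heat shock chaperone, read 922.5 ± 49.9, 1703 ± 43.2, 1187 ± 42.98 and 774 ± 44.7. In these 4 genes the arms overlapped and the differences within an arm, of 0.62 to 1.47 log2, were larger than that between the arms on this unscaled signal. The mean signal of the arrays moved likewise, at 378, 634, 481 and 328. After quantile normalization 4 hr minus 2 hr was -0.03 for Actb, -0.02 for Tuba1b, -0.04 for Hsp90ab1 and 0.23 for Ppia. With the 75th percentile the differences within the long arm stayed larger than those between the arms in all 4 genes, with 8 hr minus 6 hr at -0.93 for Actb, -1.32 for Tuba1b, -1.11 for Ppia and -0.46 for Hsp90ab1 beside arm differences of 0.38, 0.14, 0.29 and 0.24. At the cell surface, the transferrin receptor Tfrc read 1028 ± 71.3, 1875 ± 164, 1762 ± 88.75 and 833 ± 38.2, and B2m, of class I antigen presentation, read 437 ± 22.4, 684 ± 74.4, 449 ± 36.7 and 403 ± 23.7.

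Of the genes of transcription and translation, Tbp, the TATA-binding protein, had the largest unscaled difference, whereas Rpl13a had the largest after quantile normalization (0.23) and with the 75th percentile (0.42). Tbp read 88.3 ± 6.81 and 129 ± 12.8 in short OGD and 60.7 ± 8.13 and 63.5 ± 4.82 in long OGD, and its unscaled mean was 0.78 log2 lower. After quantile normalization the difference was -0.21 and the arms overlapped. Nono, an RNA-binding protein of paraspeckles, read 1590.0 ± 82.1 and 2804 ± 128 against 1924 ± 74.1 and 1576 ± 56.5, and Rpl13a, of the large ribosomal subunit, read 125 ± 7.85 and 266 ± 12.0 against 237.5 ± 7.91 and 105 ± 5.52. Gusb and Ldhal6b were near background and are not compared.

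**Figure D5:**
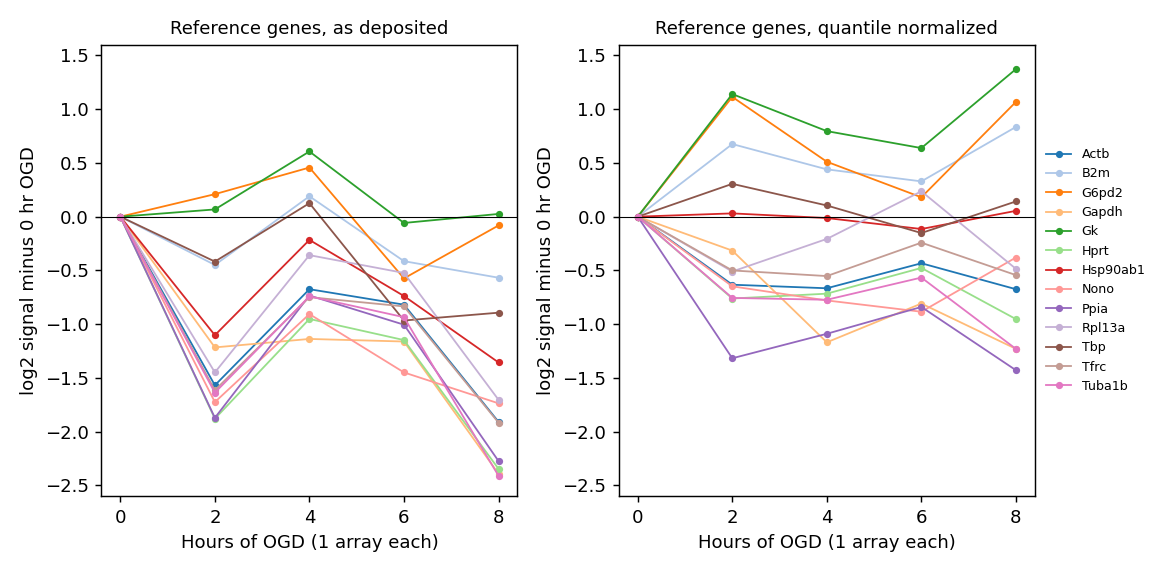
Log2 signal of the 13 measured reference genes relative to 0 hr OGD (y axis) by hours of OGD (x axis, 1 array each), as deposited and after quantile normalization over 9 arrays. On the deposited scale most genes are low at 2 and 8 hr and higher at 4 and 6 hr. After normalization Gk, G6pd2 and B2m lie above their 0 hr level on all 4 OGD arrays.

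Set against the spread within the arms with limma, 0 of 29929 probes passed at an adjusted p under 0.05, and the smallest adjusted p was 0.656, for ASMM9PARTA043547. At an unadjusted p under 0.05 there were 888 probes (2.97%), 480 higher and 408 lower. The lincRNA exon probes had 36 higher and 33 lower at this level, human lincRNA probes 5 and 14, mouse lincRNA probes 1 and 6, and ultraconserved probes 2 and 8. MM9LINCRNAEXON10280- had a difference of 2.17 ± 0.54 log2 (SE) and an unadjusted p of 0.00213, with a limma adjusted p of 0.9999. This difference includes its 2 hr value, which was not well above background, and is not exact. These p-values measure the spread between different hours of OGD and not between replicate cultures.

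The count was different among the 18053 probes that were well above background on every one of the 4 arrays. There limma gave 85 (0.471%) at an adjusted p under 0.05, with 67 higher and 18 lower, and 704 (3.9%) at an unadjusted p under 0.05. This fit also differed in its variance model, since the prior degrees of freedom were infinite, against 8.60 over all probes, so that the spread of the single probe was not used. The parts of the dim probes and of the variance model in the count were not told apart. The named lncRNA probes among these 85 were 5 lincRNA exons, all higher, and the limma adjusted p over all probes was 0.9999 for each of the 5. MM9LINCRNAEXON10413- was the brightest of them. It read 30.5 at 2 hr and 67.4 at 4 hr, then 76.0 at 6 hr and 382 at 8 hr, with 266 at 0 hr, so that 4 and 6 hr lay close together and 8 hr far above them. MM9LINCRNAEXON10120- read 46.7 and 56.8 in short OGD and 92.4 and 326 in long OGD, with 248 at 0 hr. In both, the 8 hr value was far above the other OGD values.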

How the data were processed

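RNA of the neurons, depleted of rRNA and labelled by random priming, was hybridized to an Arraystar mouse lncRNA array designed on mm9. Scanner intensity per spot (Feature Extraction 11.0.1.1), with modelled errors and flags, was deposited together with a table of 29929 probes, whose intensity values the authors had quantile normalized according to the methods. That table holds only probes flagged well above background on 3 or more of 9 arrays. The 5 OGD arrays were recorded in one scan. Here the table was taken as log2 values. Scanner signals were used for the reference genes and the alternatives, with outlier spots left out and repeated spots averaged, which left 162 probes of the table without a value on all arrays.

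The members and lists were chosen with earlier results of these data known. Probes were named if they match a lncRNA of the study's clusters, are among the up to 5 with the largest distance between the arms in a lncRNA class and direction and well above background on both arrays of the brighter arm, or are reference genes, with additions marked in the text. mRNA and reference probes were named through RefSeq (GRCm38.p6). The limma model (lmFit, eBayes with trend, Benjamini-Hochberg over all probes) compared long with short OGD. Both the rule and limma were tested on simulated data. Normexp used the median spot signal with an offset of 50. Python 3.11.15, R 4.3.3 and limma 3.58.1 were used. The number of arrays limits the precision, and p-values measure the spread between hours of OGD.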

Additional observations from a re-analysis of the deposited data

Results flagged for a closer look

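Outside the authors' table, 131 transcript probes were well above background on the 2 and 4 hr arrays and on no other array of the series, against 0 that were so on the 6 and 8 hr arrays alone. They are listed because the comparisons above do not use them. Their absence at 0, 6 and 8 hr is part of how they were chosen and is no finding. After quantile normalization 15 of the 131 met the rule of more than 1 log2 between the arms, which is given as a description, as the choice fixed its direction. Of the 131, 31 are named lncRNA probes, with 10 lincRNA exons, 7 mouse lincRNAs, 4 human lincRNAs and 10 ultraconserved segments. On the array, 6327 of 59709 transcript probes are named lncRNA probes. The median signal of the 131 on the short arrays was 22.7 and the highest was 44.3. The negative probes were also called well above background more often on the short than on the long arrays, in 7.17% of spots at 2 hr and 9.17% at 4 hr, against 1.17% at 6 hr and 0.833% at 8 hr. The share was 9.58% on the 0 hr array and 54.4% on the Day 4 array. The part of these calls in the difference was not tested.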

How the results depend on the processing

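For the probes higher, lower, and the named lncRNA probes higher and lower in long OGD, the main counts were 81, 141, 5 and 23. Quantile normalization of the scanner signals gave 9 higher lncRNA probes and otherwise counts within 1.5 times. Normexp gave 5, 0, 0 and 0, with an offset of 50 that shrinks the log2 differences of dim probes. The restriction to signal well above background on each of the 4 arrays gave 12, 1, 0 and 0. Without a filter the counts were 328, 586, 41 and 86, with a difference of arm means in place of the gap 775, 1038, 71 and 139, with a gap above 0 3862, 4113, 257 and 474, and with a gap above 2 3, 8, 0 and 0. Leaving out 1 array gave 266 to 742, 379 to 1740, 25 to 77 and 47 to 250, and by the rule these counts could not fall. The limma count of 0 became 85 with the filter and 12 to 611 with 1 array left out, highest without 6 hr, where the lone array of an arm is assumed to vary like the others. Of the reference genes, 13 had a lower mean in long OGD, 2 with the 75th percentile, 5 after quantile normalization and 6 to 13 with 1 array left out. The detected share of probes was 12.1 percentage points lower in long OGD (-12.1), or -0.19 with the negative-probe threshold. All 81 higher and 141 lower probes kept arms that did not overlap under the 3 other normalizations. Their choice by the rule largely fixed this, since the same 4 arrays were rescaled. Those that met the rule again were 81 and 120 with quantile normalization of the scanner signals, 56 and 136 with the 75th percentile, and 5 and 0 with normexp. The bounds with 1 array left out were added after seeing the data. In direction, all 13 named lncRNA probes stayed the same, which their choice by the rule largely fixed. Normexp reduced their differences to between 0.13 and 0.95 log2 in size, and its offset of 50 shrinks the differences of dim probes. With the 75th percentile the median probe at 6 hr lay 0.15 log2 above the short arrays. No paired analysis was possible because each hour has 1 array.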
